A study of Mus musculus with 31 samples.

Results

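Glycolysis and hypoxia-responsive transcripts were followed as a set of 40 genes, matched by symbol among the 39017 genes of a raw count table. All 40 were present, and all 40 passed the filter on low counts in every comparison. By role the set held 16 glycolytic enzymes, 4 carriers of glucose or lactate, 3 regulators of glycolytic flux, 3 genes of oxygen sensing and 14 further hypoxia-responsive genes. The genes were named by symbol and not by a measured value, but the choice was made with earlier results of these data known.

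Libraries came from bulk RNA of orthotopic mouse breast tumors in syngeneic hosts, all of WT genotype. Tumors of 2 models, called 4T1 and MT after the sample titles, were compared in 4 arms. Control animals received saline with PBS, the phenformin arm saline with phenformin, the poly I:C arm poly I:C with PBS, and the combination arm poly I:C with phenformin. Each group held 4 libraries except 4T1 phenformin, of which 3 libraries, replicates 1, 2 and 4, were analysed here. Phenformin belongs to the biguanide drugs and blocks mitochondrial complex I. Poly I:C mimics viral double-stranded RNA, which Toll-like receptor 3 senses. The design text places MT tumors in FVB hosts and 4T1 tumors in BALB/c hosts. For all 31 libraries, the tags for strain and cell line say the reverse of the titles: libraries titled 4T1 carry the tags FVB and MT4788, and libraries titled MT carry BALBc and 4T1-537. The model names below follow the titles, so every direction drawn between models rests on them. The labels give no dose, time, age or sex, and do not say whether replicates were separate animals.

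Glycolysis splits glucose to pyruvate in the cytosol and yields ATP without oxygen, and lactate dehydrogenase turns pyruvate to lactate so that the pathway can go on. When oxygen is short, prolyl hydroxylases of the Egln family stop marking the factor HIF-1alpha for decay, and the factor then binds hypoxia response elements near genes for glucose uptake, glycolysis, lactate export, angiogenesis and acid balance. Solid tumors often use both arms, from poor blood supply and from altered signalling.

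Promoter sequences are shown first for members whose levels the results turn on, since the core of the hypoxia response element can be read in them. RefSeq promoter windows (build GRCm38.p6, 250 bases before to 50 after a transcription start) were matched by symbol for 36 of the 40 genes. The core was searched as ACGTG and GCGTG on both strands, so CACGT and CACGC mark it on the other strand and CACGTG holds overlapping matches. Capitals mark every match. Each stretch has 100 bases that lie before the start, is written 5′ to 3′ on the strand of the gene and was chosen to hold a match.
Ldha: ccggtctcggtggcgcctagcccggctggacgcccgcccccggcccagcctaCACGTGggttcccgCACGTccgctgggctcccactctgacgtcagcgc
Bnip3: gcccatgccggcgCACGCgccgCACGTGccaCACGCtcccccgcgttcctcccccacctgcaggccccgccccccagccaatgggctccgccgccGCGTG
Pgam1: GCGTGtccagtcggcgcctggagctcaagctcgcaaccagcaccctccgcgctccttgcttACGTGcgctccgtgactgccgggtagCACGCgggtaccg
Pfkp: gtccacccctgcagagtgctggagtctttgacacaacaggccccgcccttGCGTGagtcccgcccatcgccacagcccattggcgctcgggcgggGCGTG
Egln1: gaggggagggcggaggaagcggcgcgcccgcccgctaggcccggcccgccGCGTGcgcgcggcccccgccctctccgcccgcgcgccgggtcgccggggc
Hif1a: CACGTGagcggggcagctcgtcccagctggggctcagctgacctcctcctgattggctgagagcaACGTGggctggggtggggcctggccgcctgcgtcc
Slc16a1: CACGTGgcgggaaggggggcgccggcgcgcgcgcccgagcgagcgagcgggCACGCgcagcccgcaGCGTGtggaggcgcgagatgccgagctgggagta
Pfkfb3: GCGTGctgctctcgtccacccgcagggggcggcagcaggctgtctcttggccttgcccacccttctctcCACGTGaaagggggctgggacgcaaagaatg
Adm: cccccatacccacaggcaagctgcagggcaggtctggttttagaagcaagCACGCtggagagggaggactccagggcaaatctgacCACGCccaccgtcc
Slc2a1: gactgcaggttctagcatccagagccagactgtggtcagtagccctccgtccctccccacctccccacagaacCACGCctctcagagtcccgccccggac
The Ldha stretch is chr7:46845704-46845803 (plus strand), the Bnip3 stretch chr7:138909537-138909636 (minus strand) and the Pgam1 stretch chr19:41911696-41911795 (plus strand). Pfkp was read at chr13:6648790-6648889 (minus strand), Egln1 at chr8:124949331-124949430 (minus strand) and Hif1a at chr12:73907732-73907831 (plus strand). Slc16a1 was read at chr3:104638464-104638563 (plus strand), Pfkfb3 at chr2:11502113-11502212 (minus strand), Adm at chr7:110627517-110627616 (plus strand) and Slc2a1 at chr4:119108611-119108710 (plus strand). Bnip3 held 5 matches in its 100 bases and Slc16a1 held 4, while Egln1 and Slc2a1 held 1 each. Of the 36 genes with a window, 33 held the core in at least 1 window (91.7%), against 46.7% of all 27025 genes in the promoter table. By window, the shares were 77.8% of 54 windows of the set and 43.8% of all 32851 windows. It was found in 13 of 14 genes with a window that were called higher with poly I:C in 4T1 tumors and in 20 of 22 of the other members with a window. A match is a run of letters and not a measured binding site.

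Whole-library facts bear on the values. Library totals ran from 12160110 to 19849915 counts. Levels are given as CPM, reads of a gene scaled to a fixed library size, after TMM scaling over all 31 libraries. Some libraries stood apart by markers of other cells. In MT tumors, Sox10 (a neural crest factor) exceeded 10 CPM in 6 libraries, control 1 to 3 and phenformin 1 to 3, and in none of the poly I:C or combination libraries. The sum of 4 basal epithelium markers was at most 77.9 CPM in MT control 1 to 3 and 3378 CPM in MT control 4. In 4T1 tumors, Acta1 (skeletal muscle actin) exceeded 10 CPM in 5 libraries, poly I:C 2 and 3, combination 1 and 4 and phenformin 4. A sum of 4 B and plasma cell markers exceeded 1000 CPM in 5 libraries: 4T1 poly I:C 1, MT phenformin 4, MT poly I:C 3, and MT combination 1 and 4. Breast epithelium markers, 3 in number, were detected in every group, and their sum was lowest in MT combination 1 at 391 CPM. In bulk tissue, fewer cells of a type and less RNA per cell cannot be told apart.

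For 7 members the gene's own count is uncertain, because copies of nearly the same sequence elsewhere in the genome are counted as genes of their own. Gapdh, the glyceraldehyde-3-phosphate dehydrogenase often used as a reference gene, had 3244 reads in all libraries together, and its copies in the table had 90173, of which the pseudogene Gm13394 had 85092. Pgk1, phosphoglycerate kinase, had 18952 reads against 236436 for Pgk1-rs7, and Pgam1, phosphoglycerate mutase, had 19252 against 156787 for Pgam1-ps2. Eno1, enolase, had 61789 reads against 306630 for Gm4735 and 102109 for Gm5506. In Gpi1, Bnip3 and Bnip3l the gene held more reads than its copy: 233287 against 68649, 67169 against 11610, and 93971 against 26527. Where summing a gene with its copies (at least 98% identity) changed a call, the summed value is given beside the gene's own.

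**Figure D1:**
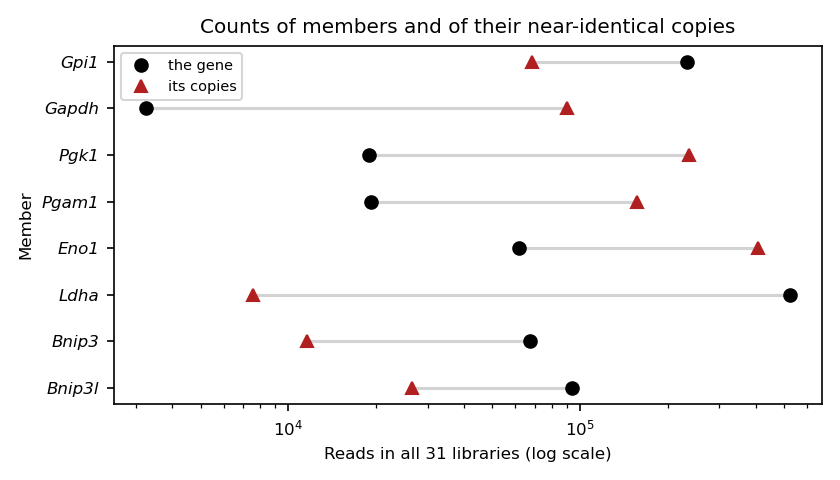
Reads summed over the 31 libraries (x axis, log scale) for 8 members (y axis) that have a copy of at least 95% identity in the count table. Circles are the gene and triangles its copies: the copies held more reads than the gene for Gapdh, Pgk1, Pgam1 and Eno1, and fewer for the other 4.

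In untreated tumors, glycolytic enzyme transcripts were lower in 4T1 than in MT tumors. Of the 40 members, 24 passed the test in the untreated comparison, 21 lower and 3 higher in 4T1. The test was edgeR's quasi-likelihood test with Benjamini-Hochberg adjustment over all 18956 genes tested, at an adjusted p of 0.05, by which 51.9% of all genes were called (26.7% higher and 25.2% lower). The share of members called is therefore near that of all genes, while their median log2 fold was -0.68 against a median for all genes under 0.01 in size. Of the 16 enzymes, 13 were lower and none higher.

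Per kilobase of merged exons, the most abundant members of the untreated 4T1 tumors were Pkm (pyruvate kinase) at 269 CPM per kb, Aldoa (aldolase A) at 233 and Ldha (lactate dehydrogenase A) at 192. In untreated MT tumors the same 3 genes led, with Aldoa at 504, Ldha at 464 and Pkm at 393 CPM per kb. Slc2a3 (glucose carrier GLUT3) was among the lowest in both models, at 0.837 and 0.591 CPM per kb. These ranks use each gene's own count. For Gapdh, Pgk1, Pgam1 and Eno1 the copies held more reads than the gene, so the place of these genes in the ranking is not known.

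Higd1a, a mitochondrial protein of the hypoxia response, was at 21.1, 21.3, 22.3 and 20.8 CPM in the 4T1 controls and at 98.6, 98.8, 99.3 and 102 CPM in the MT controls. The groups did not overlap, and the log2 fold was -2.22 ± 0.27 (SE; adjusted p = 2.91e-07, edgeR). Ldha was at 625, 648, 561 and 708 CPM in 4T1 controls and 1295, 1627, 1342 and 1883 in MT controls, a log2 fold of -1.27 ± 0.20 (adjusted p = 1.09e-05, edgeR). All MT controls exceeded all 4T1 controls for both genes. Pfkfb4, one of the bifunctional enzymes that set the level of the phosphofructokinase activator fructose-2,6-bisphosphate, went the other way. It was at 14.5, 19.3, 16.9 and 15.5 CPM in 4T1 controls and 5.74, 4.94, 6.83 and 3.25 in MT controls, a log2 fold of 1.67 ± 0.20 (adjusted p = 2.41e-07, edgeR). Car9, carbonic anhydrase 9, an enzyme of acid balance, was also higher in 4T1, with 61.1, 80.97, 65.6 and 48.9 CPM against 16.6, 14.2, 14.3 and 45.4 (log2 1.51 ± 0.41, adjusted p = 0.00321, edgeR). Its highest MT control, replicate 4, lay just below the lowest 4T1 control. Hif1a, which encodes the oxygen-regulated factor itself, differed by log2 0.35 ± 0.14 (adjusted p = 0.0412, edgeR). The Hif1a call held in 2 of 8 fits without 1 library, and DESeq2 did not make it (adjusted p = 0.0804, DESeq2). Vegfa, the angiogenic growth factor, was lower in 4T1 by log2 -1.29 ± 0.44 (adjusted p = 0.0172, edgeR). Slc2a1 (glucose carrier GLUT1) gave log2 -0.70 ± 0.35 and did not pass (adjusted p = 0.0944, edgeR).

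Without the MT libraries of high Sox10, 1 MT control is left, which is assumed to vary like the other groups. Fewer members were called in that fit, and the share of all genes called in it is not given here. Ldha, Higd1a and Pfkfb4 then gave log2 folds of -1.56, -2.25 and 2.35, and Car9 gave 0.50. Aldoc, aldolase C, marked the MT libraries most: it was at 728, 800.4, 695 and 73.8 CPM in MT controls 1 to 4 and at 37.3, 33.5, 42.9 and 34.5 in 4T1 controls. MT control 4, the control with low Sox10, held the low Aldoc value. The log2 fold between models was -3.95 ± 0.67 (adjusted p = 2.28e-05, edgeR) and -0.99 without the libraries of high Sox10 (adjusted p = 0.0923, edgeR).

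Markers of other cells moved with the untreated comparison as well. All 7 macrophage markers, all 5 endothelial markers and 6 of 7 fibroblast markers were called higher in 4T1, and 3 of 4 basal epithelium markers were called lower. Macrophage markers summed to 2673 to 4079 CPM in 4T1 controls and 506 to 678 CPM in MT controls. Their part in the result was not tested. Of other pathway genes, 10 of 13 HIF regulators were lower in 4T1 and 1 higher, led by Siah2 (-1.57 ± 0.19), Vhl (-0.75 ± 0.11) and Cul2 (-0.81 ± 0.15), the last 2 being parts of the ligase that degrades HIF-1alpha. The 31 other hypoxia-responsive genes were split, with 8 higher and 8 lower, where 26.7% of all genes were higher and 25.2% lower. Of 20 other glycolysis genes 4 were higher, led by Eno3 (muscle enolase, 4.000 ± 0.42), and 9 lower, led by Slc2a6 (a glucose carrier family member, -2.69 ± 0.31). Of 13 pyruvate entry genes 6 were lower, among them Pcx (pyruvate carboxylase, -2.92 ± 0.41). Of 12 pentose phosphate and gluconeogenesis genes 6 were lower and 1 higher, with Taldo1 (-1.39 ± 0.11) first by p, and of 17 Myc and energy sensing genes 5 were higher and 5 lower, with Myc itself at 1.17 ± 0.12.

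Poly I:C alone raised glycolytic and hypoxia-responsive transcripts in 4T1 tumors. Of the 40 members, 16 were higher and 1, Egln3, was lower than in controls (edgeR, adjusted p under 0.05), where 6.32% of all 17445 genes tested were called, 3.26% higher and 3.06% lower. Fold changes were above 0 for 36 of 40 members, with a median log2 of 0.51 against 0.01 for all genes, and in 11 members the 4 poly I:C libraries did not overlap the 4 controls, as in 12.7% of all genes. DESeq2 called 26 members and 11.3% of all genes. The raised genes were 6 of 16 enzymes (Pgam1, Pfkp, Tpi1, Ldha, Pkm and Pfkl), 3 of 4 carriers (Slc2a1, Slc2a3 and Slc16a3), Hif1a and Egln1 among the oxygen sensors, and 5 of 14 effectors (Plod2, Kdm3a, Higd1a, Bnip3 and Adm). None of the 3 flux regulators passed.

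**Figure D2:**
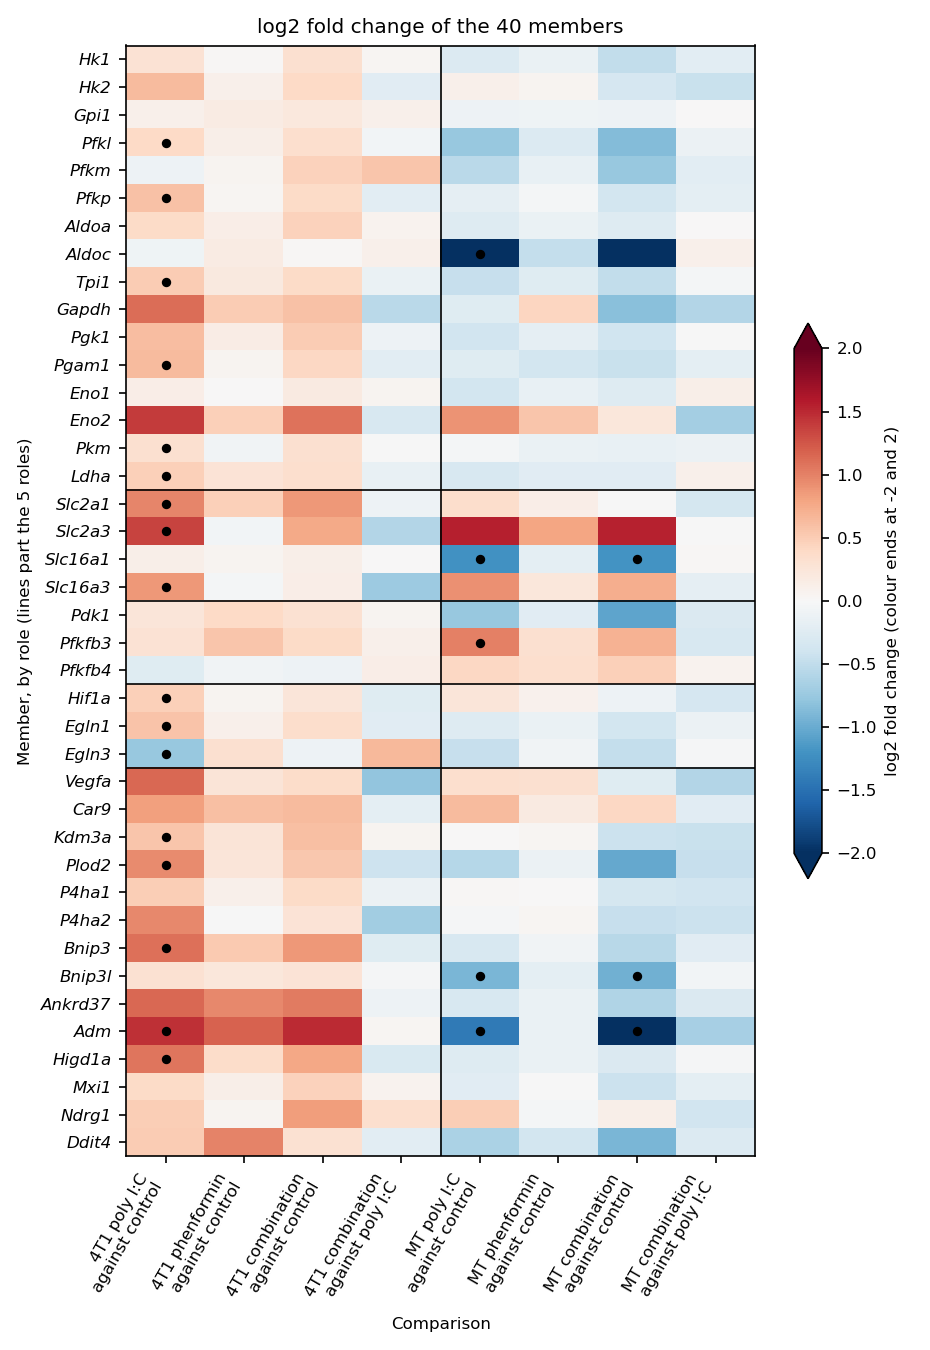
log2 fold change of each member (rows, parted by role) in 8 comparisons within a model (columns), with colour from -2 to 2 and black dots for adjusted p under 0.05 (edgeR). The column of poly I:C in 4T1 tumors is red for 36 of 40 members with 17 dots, and the MT column of poly I:C has 5 dots, 4 of them on lower genes.

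Among the enzymes, Pgam1 was at 28.1, 27.5, 25.2 and 31.4 CPM in controls 1 to 4 and 49.3, 41.3, 46.4 and 33.9 CPM in poly I:C tumors 1 to 4. All poly I:C libraries were higher, and the log2 fold was 0.63 ± 0.12 (adjusted p = 0.0124, edgeR). Counted with its copy Pgam1-ps2 the fold was 0.47 ± 0.11 (adjusted p = 0.0305, edgeR). Pfkp, the platelet-type phosphofructokinase, an enzyme of the committed step, was at 129, 108, 113 and 112 CPM in controls and 199.5, 152, 189.5 and 142 with poly I:C. Its groups did not overlap either (log2 0.58 ± 0.12, adjusted p = 0.0141, edgeR). Tpi1, triose-phosphate isomerase, was at 383, 359, 315 and 391 CPM in controls and 553, 481, 564 and 432 with poly I:C, again without overlap (log2 0.51 ± 0.10, adjusted p = 0.0153, edgeR). Ldha was at 625, 648, 561 and 708 CPM in controls and 984, 833, 997 and 691 with poly I:C. Poly I:C replicate 4 lay below control 4, so the groups overlapped (log2 0.48 ± 0.12, adjusted p = 0.0288, edgeR). Pgk1 and Eno1 did not pass on their own counts (log2 0.61 ± 0.19 and 0.13 ± 0.15) and passed when counted with their copies, at 0.78 ± 0.13 (adjusted p = 0.00948, edgeR) and 0.35 ± 0.09 (adjusted p = 0.0378, edgeR). With copies summed, 19 members were called in place of 17.

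Among the carriers, Slc2a1 was at 113, 111, 69.6 and 106 CPM in controls and 262, 167, 236 and 109 with poly I:C. Poly I:C replicates 1 to 3 were above every control and replicate 4 was not (log2 0.98 ± 0.27, adjusted p = 0.045, edgeR). Slc16a3, the lactate exporter MCT4, was at 29.7, 28.5, 24.8 and 27.9 CPM in controls and 49.4, 47.1, 75.4 and 26.6 with poly I:C, with the same library low (log2 0.86 ± 0.24, adjusted p = 0.0482, edgeR).

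Among the oxygen sensors, Egln1 (the prolyl hydroxylase PHD2) had the smallest p of the set. It was at 172, 148, 148 and 167 CPM in controls and 273, 221, 246 and 194 with poly I:C, without overlap (log2 0.58 ± 0.10, adjusted p = 0.0096, edgeR). Its relative Egln3 (PHD3) was the only member called lower, with 269, 229, 276 and 254 CPM in controls and 149, 131, 155 and 165 CPM with poly I:C, also without overlap (log2 -0.76 ± 0.18, adjusted p = 0.0251, edgeR). Hif1a rose from 360.2, 354, 340.0 and 297 CPM to 493, 517, 437 and 408 CPM, with all poly I:C libraries above all controls (log2 0.48 ± 0.11, adjusted p = 0.0216, edgeR).

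Among the effectors, Plod2, a lysyl hydroxylase that prepares collagen for cross-linking, was at 103, 105, 89.6 and 74.5 CPM in controls and 191, 165, 220.3 and 129.5 with poly I:C, without overlap (log2 0.94 ± 0.19, adjusted p = 0.0148, edgeR). Kdm3a, a histone H3 lysine demethylase, was at 85.2, 97.4, 80.4 and 79.3 CPM in controls and 129, 110.3, 141 and 116 with poly I:C, without overlap (log2 0.56 ± 0.11, adjusted p = 0.0149, edgeR). The largest fold of a called member was that of Adm, the vasodilator peptide adrenomedullin, at 20.1, 16.7, 13.8 and 15.8 CPM in controls and 66.3, 33.6, 60.6 and 19.5 with poly I:C (log2 1.46 ± 0.39, adjusted p = 0.0398, edgeR). Adm in poly I:C replicate 4 was below the highest control. Vegfa and Car9 did not pass, with log2 1.15 ± 0.36 (adjusted p = 0.0701) and 0.82 ± 0.24 (adjusted p = 0.0549) by edgeR.

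The 4 poly I:C libraries of 4T1 differed among themselves across the set. The median log2 level of the 40 members over the control mean was 0.64 in replicate 1, 0.40 in replicate 2, 0.64 in replicate 3 and 0.08 in replicate 4. Replicate 4 was the lowest library of its group for 30 of the 40 genes. Without it, 27 members were called, 26 higher and 1 lower, and the share of all genes called in that fit is not given here. Leaving out any other library of the comparison gave 5 to 10 calls, the 5 without control 3, and Egln1, Pgam1, Pfkp, Plod2 and Kdm3a were called in all 8 such fits. Without the 5 libraries of high Acta1, which leaves poly I:C 1 and 4, no member was called by edgeR, and 37 of 40 folds were above 0 with a median of 0.47. Egln1 then gave log2 0.57 ± 0.13 (adjusted p = 0.167, edgeR).

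Marker sums moved with this comparison. The 7 fibroblast markers summed to 3537 to 5397 CPM in controls and 5578 to 13949.7 CPM with poly I:C, and 3 of them (Postn, Col1a1 and Col1a2) were called higher. The 7 macrophage markers summed to 2673 to 4079 CPM in controls and 1163 to 1763 CPM with poly I:C, and 4 were called lower. The 7 neutrophil markers summed to 78.6 to 169.7 CPM in controls and 55.9 to 868 CPM with poly I:C, with 2 called higher. No marker of these lists was at 0 in any group. Their part in the result was not tested.

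**Figure D3:**
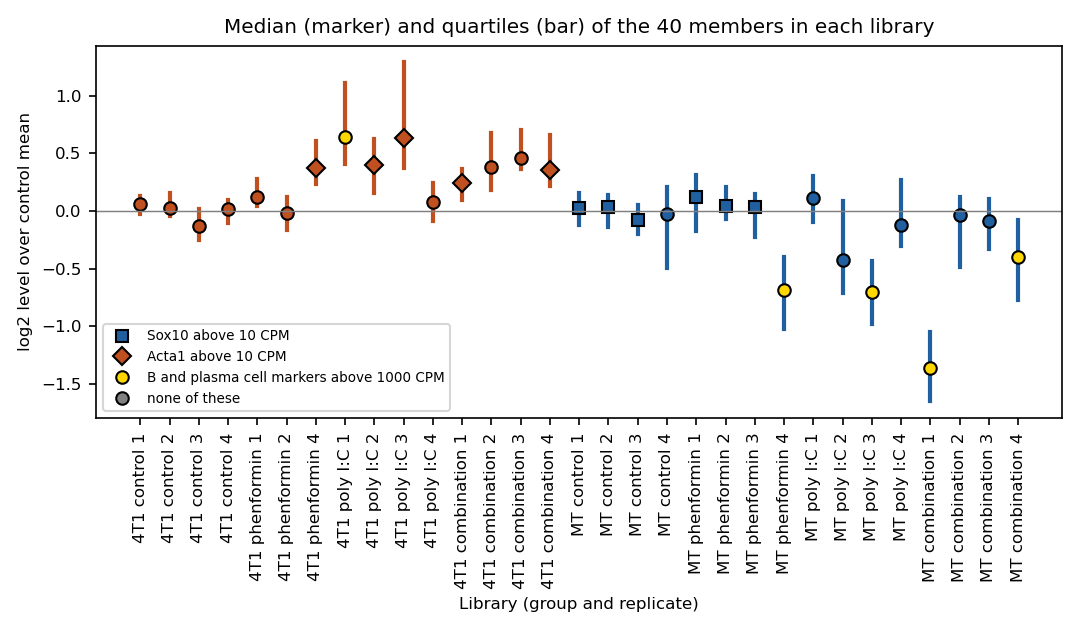
Median (marker) and quartiles (bar) over the 40 members of the log2 level over the mean of the model's controls (y axis), for each of the 31 libraries (x axis). Squares, diamonds and gold circles mark libraries with high Sox10, high Acta1 and high B and plasma cell markers. 4T1 poly I:C replicates 1 to 3 lie between 0.40 and 0.64 and replicate 4 at 0.08, and MT combination 1 lies lowest at -1.36.

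Genes outside the set but in the same pathways were counted from fixed lists. Of all genes tested, 3.26% were higher with poly I:C in 4T1 tumors and 3.06% lower. Of 31 other hypoxia-responsive genes, 12 were higher and 1 lower with poly I:C in 4T1 tumors, with a median log2 of 0.71. Those called higher included Gbe1 (glycogen branching enzyme) and Nos2 (inducible nitric oxide synthase), with log2 folds of 0.71 ± 0.13 and 3.03 ± 0.58. Of 20 other glycolysis genes tested, 1 was higher and 1 lower, and the median was 0.07. Of 13 genes of pyruvate entry to mitochondria, only Pdk2 (a kinase that inhibits pyruvate dehydrogenase) was called, lower by log2 -1.18 ± 0.20. Of 13 HIF regulators tested, Cited2 (which competes with HIF for its coactivators) was the only one called, at 0.82 ± 0.16. None of 12 genes of the pentose phosphate pathway and gluconeogenesis passed. Of 17 genes of Myc and energy sensing, 1 was higher and 2 lower.

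In MT tumors poly I:C gave another pattern, with 5 of 40 members called, 1 higher and 4 lower, where 19.6% of 17857 genes were called (8.52% higher and 11.1% lower). The median log2 of the set was -0.25 against 0.01 for all genes, and 13 of 40 folds were above 0. The median was -0.13 without poly I:C 3. The share of members called was below the share of all genes.

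Pfkfb3, which raises fructose-2,6-bisphosphate and so glycolytic flux, was the only member called higher. It was at 52.3, 42.00, 52.6 and 90.9 CPM in MT controls and 117, 126, 127 and 102 with poly I:C, without overlap (log2 1.01 ± 0.24, adjusted p = 0.0113, edgeR). Slc16a1, the lactate carrier MCT1, fell from 202, 233, 156 and 96.4 CPM to 76.8, 69.6, 66.2 and 81.6 CPM, also without overlap (log2 -1.21 ± 0.28, adjusted p = 0.0106, edgeR). Its poly I:C libraries lay within a narrow band, and control 4 was the lowest control. Aldoc was at 728, 800.4, 695 and 73.8 CPM in controls and 81.2, 52.5, 54.3 and 85.6 with poly I:C (log2 -3.06 ± 0.84, adjusted p = 0.0224, edgeR). Control 4 lay inside the range of the poly I:C libraries. Bnip3l, a mitophagy receptor, was at 269.9, 286, 267 and 144 CPM in controls and 157, 109, 111 and 132 with poly I:C (log2 -0.91 ± 0.26, adjusted p = 0.025, edgeR). Adm was at 61.9, 47.3, 39.7 and 15.9 CPM in controls and 22.2, 16.2, 9.72 and 13.2 with poly I:C (log2 -1.42 ± 0.46, adjusted p = 0.0451, edgeR). For these 2 genes as well control 4 overlapped the poly I:C libraries and controls 1 to 3 did not. Hif1a (0.24 ± 0.16), Slc2a1 (0.35 ± 0.38), Ldha (-0.33 ± 0.25), Vegfa (0.33 ± 0.46) and Car9 (0.64 ± 0.49) did not pass on the log2 scale, with adjusted p from 0.312 to 0.623 by edgeR.

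The MT calls moved with the libraries of high Sox10. Without these libraries, which leaves MT control 4 alone against 4 poly I:C libraries, none of the 5 was called by edgeR. Slc16a1 then gave -0.36 ± 0.14, Pfkfb3 0.41 ± 0.23, Aldoc -0.09 ± 0.66, Bnip3l -0.15 ± 0.20 and Adm -0.03 ± 0.54 on the log2 scale, with the lone control assumed to vary like the other groups. In the fits that left out 1 library each, Slc16a1 and Pfkfb3 were called in all 8. The number of calls was 9 without control 4, 3 without control 3 and 2 without control 1, control 2, poly I:C 2, poly I:C 3 or poly I:C 4. For these fits the share of all genes called is not given here. The 7 macrophage markers were all called higher, with sums of 506 to 678 CPM in controls and 1761 to 2283 CPM with poly I:C, as were all 5 endothelial markers, with sums of 107 to 169.97 CPM and 254 to 409 CPM. Neutrophil markers summed to 19.9 to 2465 CPM in controls and 124 to 378 CPM with poly I:C. Their part in the result was not tested.

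Of the other lists in MT tumors with poly I:C, 5 of 12 pentose phosphate and gluconeogenesis genes were lower, among them Tkt (transketolase, -0.65 ± 0.14), Taldo1 (transaldolase, -0.43 ± 0.09) and Pck2 (the mitochondrial phosphoenolpyruvate carboxykinase, -0.68 ± 0.17). Of 13 HIF regulators 5 were lower and 1 higher, the lower ones led by Elob (-0.71 ± 0.12), Siah2 (-1.03 ± 0.20) and Eloc (-0.47 ± 0.11). Elob and Eloc are elongins of the ligase that degrades HIF-1alpha, and Siah2 is a ligase for prolyl hydroxylases. Of 31 other hypoxia-responsive genes 4 were higher and 2 lower, led by Angptl4 (1.85 ± 0.40), Nos2 (1.84 ± 0.44) and Mif (-1.02 ± 0.26). Among all genes tested, 8.52% were higher and 11.1% lower.

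**Figure D4:**
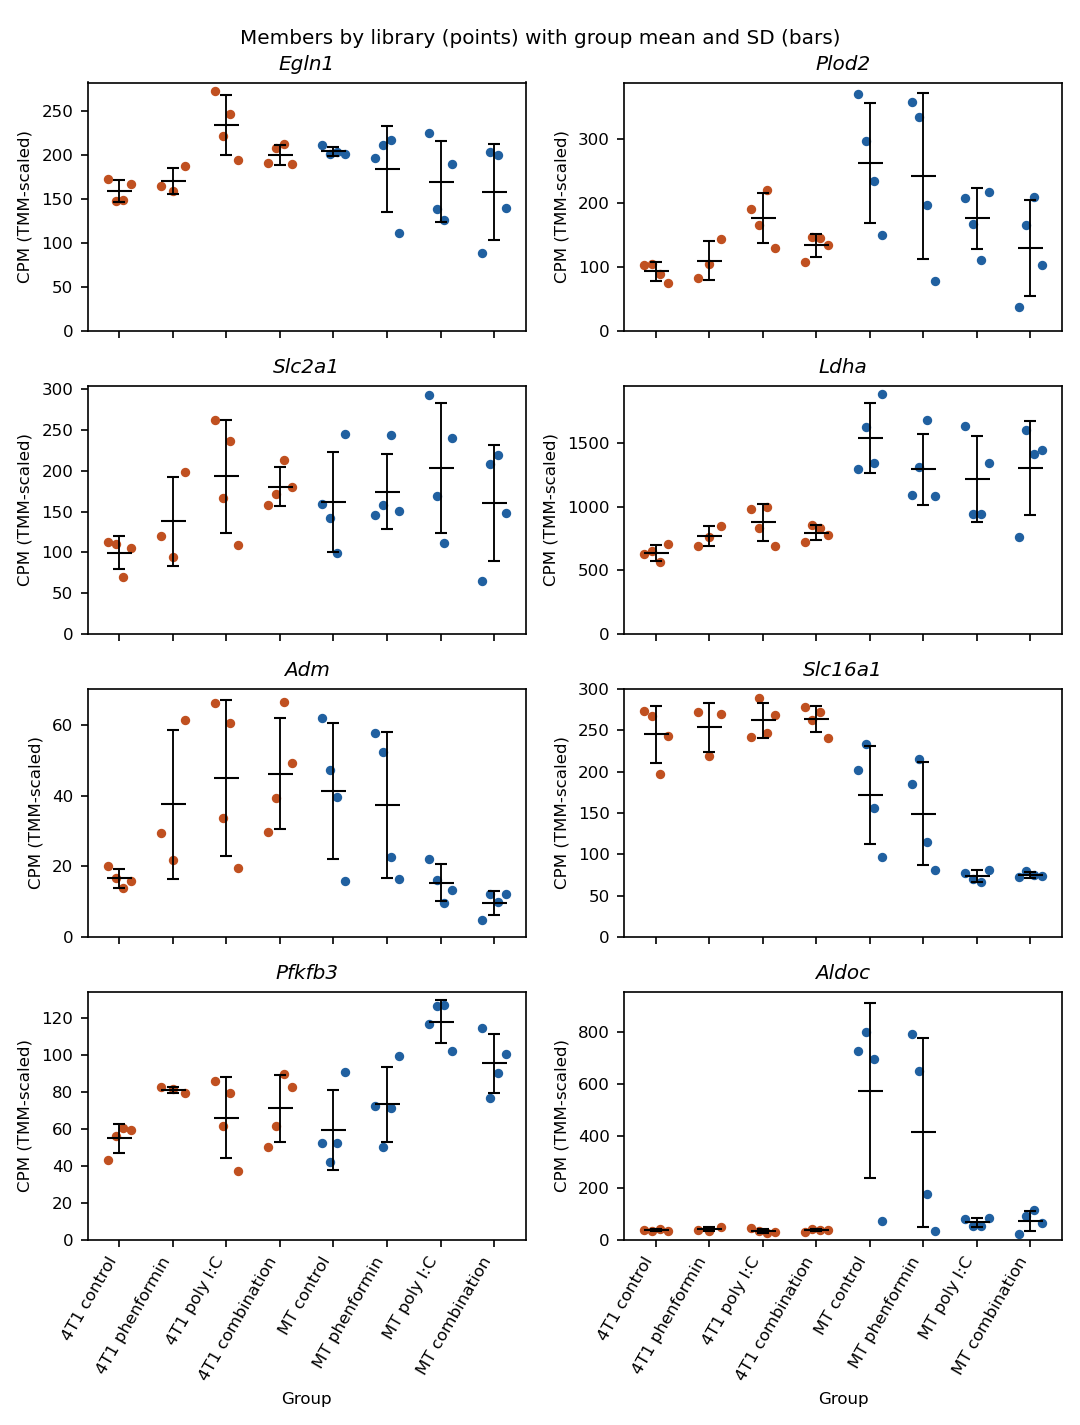
CPM (y axis, TMM-scaled) of 8 members by group (x axis), with a point per library, the group mean as a dash and the SD as bars, 4T1 in orange and MT in blue. Egln1 and Plod2 were higher in all 4T1 poly I:C libraries than in 4T1 controls, Slc16a1 lay between 66.2 and 81.6 CPM in all MT poly I:C and combination libraries, and Aldoc lay between 651 and 800.4 CPM in 5 of the 16 MT libraries and at 175 CPM or less in the rest.

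The difference between the poly I:C responses of the models was tested in 1 fit over all 8 groups. Of the 40 members 9 differed, all with a higher response in 4T1, where 11.1% of 18956 genes were called, 5.7% in that direction and 5.42% in the other. DESeq2 called 16 members and 15.6% of all genes. The median difference was log2 0.70 against 0.01 for all genes, and 35 of 40 differences were above 0. The 9 were Adm, Slc16a1, Bnip3l, Higd1a, Aldoc, Pfkp, Tpi1, Bnip3 and Pfkl.

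Adm differed by log2 2.87 ± 0.63 (adjusted p = 0.00494, edgeR), from 1.46 in 4T1 and -1.42 in MT tumors. Slc16a1 differed by 1.32 ± 0.31 (adjusted p = 0.00866, edgeR). It was at 273, 268, 197 and 244 CPM in 4T1 controls and 242, 289, 247 and 269 CPM with poly I:C, where the groups overlapped, and it fell in MT tumors. Bnip3l differed by 1.21 ± 0.31 (adjusted p = 0.0128, edgeR). These 3 were called in all 16 fits that left out 1 library. Bnip3, whose protein is related to that of Bnip3l, was at 71.03, 82.6, 73.7 and 58.8 CPM in 4T1 controls and 177, 112, 243 and 76.1 with poly I:C, and at 179, 169, 181 and 198 and 199, 133, 83.9 and 158 in MT. The differences for Hif1a (0.24 ± 0.20), Slc2a1 (0.62 ± 0.49), Ldha (0.80 ± 0.28), Vegfa (0.82 ± 0.62) and Car9 (0.18 ± 0.56) did not pass. The 95% interval for Hif1a was -0.16 to 0.63 and for Car9 -0.93 to 1.29 on the log2 scale.

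**Figure D5:**
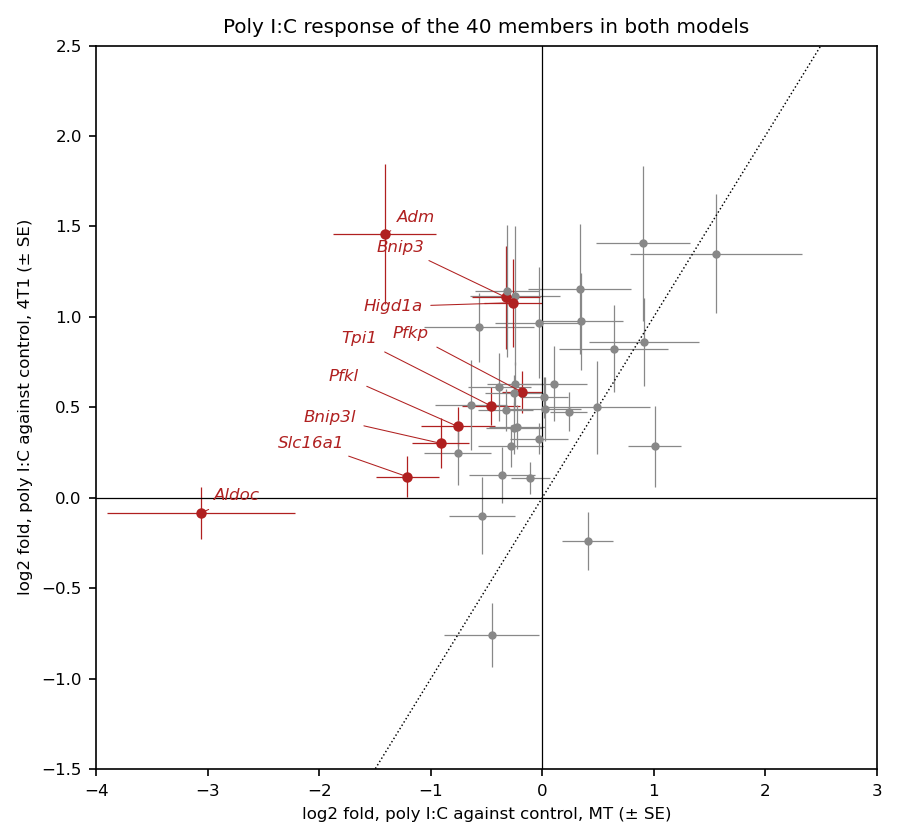
log2 fold of poly I:C against control in MT (x axis) and 4T1 tumors (y axis) for the 40 members, with SE bars and a dotted line of equal response. Red and named are the 9 members whose responses differed (edgeR, adjusted p under 0.05), all of them above the line.

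The count of 9 depended on libraries, and the share of all genes called in each such fit is not given here. It was 3 without MT poly I:C 2 or 3, 4 without MT control 1 or 2 or 4T1 poly I:C 1 or 3, 5 without 4T1 control 3 and 15 without MT poly I:C 1. Without the MT libraries of high Sox10 only 1 member differed, Pfkfb4 with a lower response in 4T1 (-1.36 ± 0.32, adjusted p = 0.0293, edgeR), and Adm gave 1.46 ± 0.70. Without the 4T1 libraries of high Acta1 only Adm differed (2.80 ± 0.68, adjusted p = 0.0227, edgeR). Pgk1 differed when counted with its copies (1.14 ± 0.33, adjusted p = 0.0254, edgeR) and not on its own count (0.98 ± 0.36). Among other lists, Siah2 (1.27 ± 0.27), Cited2 (1.13 ± 0.27) and Eloc (0.62 ± 0.16) of 4 HIF regulators with a higher response in 4T1 had the smallest p, all called. Of 31 other hypoxia-responsive genes 4 had a higher response in 4T1, among them Mif (1.19 ± 0.31) and Ak4 (2.29 ± 0.61), and 1, Ppfia4 (-2.48 ± 0.42), had a lower one. Among all genes tested, 5.7% had a higher response in 4T1 and 5.42% a lower one.

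Averaged over both models and both phenformin states, poly I:C gave 9 calls, 4 higher and 5 lower. Of 18956 genes, 21.3% were called (8.96% higher and 12.4% lower), so the share of members called was near that of all genes. Slc2a3 (1.11 ± 0.31, adjusted p = 0.0147, edgeR) was higher, with Pfkfb3, Slc16a3 and Eno2. Aldoc (-1.45 ± 0.31, adjusted p = 0.00217, edgeR) and Slc16a1 (-0.52 ± 0.11, adjusted p = 0.00264, edgeR) were lower, with Bnip3l, Egln3 and Pdk1. An average need not be a shared response: Aldoc, Slc16a1 and Bnip3l were among the members whose response to poly I:C alone differed between the models. The set's median was 0.08, and it ran from 0.04 to 0.14 in fits without 1 library, the lowest without MT poly I:C 1 and the highest without MT combination 1. The averages for Hif1a, Slc2a1, Ldha, Vegfa and Car9 were 0.17, 0.39, 0.05, 0.25 and 0.42, and none passed. Without the libraries of high Sox10 the count was 2, and Aldoc turned to 0.20. Without those of high Acta1 the count was also 2. Leaving out 1 library gave 3 without MT phenformin 2, 4 without MT control 1, MT control 2 or 4T1 combination 3, and 5 without MT control 3, MT poly I:C 2, 4T1 phenformin 1 or 4T1 phenformin 4. For these fits as well the share of all genes called is not given here.

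A block of complex I is known to shift cultured cells towards glycolysis. With phenformin alone no member passed the test in either model. By edgeR, 0 of 40 members and 0% of all genes were called against controls in 4T1 and in MT tumors. At an unadjusted p under 0.05 there were 6 members in 4T1, all higher, where 4.24% of all genes were higher by that criterion. In MT there were 0, where 6.07% of all genes passed it in either direction. DESeq2 called 1 member in 4T1 (1.01% of all genes) and 0 in MT (0.101%). In 4T1 tumors 35 of 40 folds were above 0 with a median of 0.15. Phenformin 4, a library of high Acta1, was the highest of its group for 29 of 40 members and phenformin 2 the lowest for 30. Without phenformin 4 the median was 0.03, with 27 folds above 0, and without phenformin 2 it was 0.25. In MT tumors 14 of 40 folds were above 0 with a median of -0.10, which was 0.06 without phenformin 4.

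Ddit4, an inhibitor of mTORC1 that energy stress induces, had the smallest p in 4T1 tumors. It was at 104, 105, 80.96 and 142 CPM in controls and 214, 163 and 267 in the 3 phenformin libraries, which all exceeded the controls (log2 0.996 ± 0.26, adjusted p = 0.226, edgeR). Adm was next, at 20.1, 16.7, 13.8 and 15.8 CPM in controls and 29.4, 21.7 and 61.4 with phenformin, also without overlap (log2 1.18 ± 0.41, adjusted p = 0.338, edgeR). Neither passed. In 4T1 tumors Hif1a gave 0.05 ± 0.12, Slc2a1 0.47 ± 0.28, Ldha 0.27 ± 0.13, Vegfa 0.26 ± 0.38 and Car9 0.61 ± 0.26 on the log2 scale. The 95% interval for Ldha was 0.02 to 0.52 and that for Slc2a1 was -0.09 to 1.03.

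In MT tumors the smallest p values were those of Pfkfb4 (0.34 ± 0.23) and Pgam1 (-0.36 ± 0.25), with adjusted p of 0.838 and 0.839 by edgeR. Ddit4 was at 361, 363, 307 and 292 CPM in MT controls and 294, 317, 252 and 158 with phenformin, so the groups overlapped. Hif1a gave 0.09 ± 0.16, Slc2a1 0.13 ± 0.38, Ldha -0.23 ± 0.25, Vegfa 0.32 ± 0.46 and Car9 0.18 ± 0.49. MT phenformin replicate 4 was the lowest library of its group for 31 of 40 members, and it held high B and plasma cell markers. Averaged over 4 settings, phenformin gave 0 calls among members by edgeR, where 0.0158% of genes were called (0.0106% higher and 0.00528% lower). It gave 0 members at an unadjusted p under 0.05 (9.83% of all genes) and 0 by DESeq2 (0.902%). The median was -0.02 and ran from -0.06 without 4T1 phenformin 4 to 0.03 without MT combination 1. The averages were -0.11 ± 0.07 for Hif1a, 0.03 ± 0.18 for Slc2a1, -0.0038 ± 0.10 for Ldha, -0.20 ± 0.22 for Vegfa and 0.09 ± 0.20 for Car9, and Pgam1 (-0.18 ± 0.10) had the smallest p.

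With the combination, most members of the set had higher levels in 4T1 tumors, but none passed the test. Against controls, 38 of 40 folds were above 0 with a median of 0.38, and 18 members did not overlap between the groups, which was so for 8.59% of all genes. By edgeR 0 members and 0% of all 17445 genes were called. At an unadjusted p under 0.05 there were 26 members, all higher, where 6.62% of all genes were higher by that criterion. DESeq2 called 7 members and 2.26% of all genes.

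Kdm3a had the smallest p, at 85.2, 97.4, 80.4 and 79.3 CPM in controls and 117, 143, 129 and 128 with the combination (log2 0.60 ± 0.11, adjusted p = 0.0746, edgeR). Adm followed, at 29.6, 39.3, 66.4 and 49.4 CPM with the combination against 20.1, 16.7, 13.8 and 15.8 in controls (log2 1.49 ± 0.39, adjusted p = 0.135, edgeR). For both genes every combination library was above every control. Slc2a1 was at 158, 172, 213 and 181 CPM, above all controls (0.87 ± 0.27, adjusted p = 0.191, edgeR), and Ldha was at 722, 854, 833 and 773 CPM, also above all controls (0.34 ± 0.12). Hif1a (0.24 ± 0.11), Vegfa (0.36 ± 0.36) and Car9 (0.63 ± 0.24) overlapped with controls. Skeletal muscle markers summed to 94.2 to 152 CPM in controls and 119.5 to 769 CPM with the combination. The sum includes Eno3 and Pgam2, which are also counted among the other glycolysis genes. Acta1, a part of the sum, was at most 0.758 CPM in controls and was high in 2 of 4 combination libraries. The part of these markers in the values was not tested.

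Against poly I:C alone, the combination in 4T1 tumors gave 0 calls by edgeR, where 0.246% of genes were called (0.149% higher and 0.0974% lower). At an unadjusted p under 0.05 there were 2 higher members and 6 lower ones, against 10% and 9.53% of all genes, and DESeq2 called 2 members and 5.25% of genes. Without poly I:C 4, 4 were called, 1 higher and 3 lower, and the share of all genes called in that fit is not given here. The median was -0.10, and it ran from -0.23 without poly I:C 4 to -0.0043 without poly I:C 3. Egln3, lowered by poly I:C alone, was at 149, 131, 155 and 165 CPM with poly I:C and 210.4, 255, 213 and 269 with the combination, without overlap (log2 0.66 ± 0.18, adjusted p = 0.0859, edgeR). Slc16a3 was at 49.4, 47.1, 75.4 and 26.6 CPM with poly I:C and 21.2, 31.6, 33.5 and 33.8 with the combination (log2 -0.73 ± 0.24, adjusted p = 0.13, edgeR), where poly I:C 4 overlapped. Hif1a (-0.24 ± 0.11), Slc2a1 (-0.10 ± 0.26), Ldha (-0.14 ± 0.12), Vegfa (-0.79 ± 0.36) and Car9 (-0.19 ± 0.24) did not pass.

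Against phenformin alone, the combination in 4T1 tumors gave 0 calls by edgeR and 0% of genes. At an unadjusted p under 0.05 there were 9 higher members and 2 lower ones, against 6.72% and 5.74% of all genes, and DESeq2 called 1 member and 1.03% of genes. The median was 0.26, and 0.14 without phenformin 2. Pkm was at 1362, 1199 and 1304 CPM with phenformin and 1655, 1700.2, 1758 and 1547 with the combination, without overlap (log2 0.39 ± 0.09, adjusted p = 0.193, edgeR), and Kdm3a gave 0.35 ± 0.12. Hif1a, Slc2a1, Ldha, Vegfa and Car9 gave 0.19, 0.40, 0.07, 0.10 and 0.02. The interaction of phenformin and poly I:C, which is how far the combination departs from the sum of its parts, gave 0 calls by edgeR (0% of genes). At an unadjusted p under 0.05 there were 5 members, all negative, as were 4.63% of all genes, and DESeq2 called 0 members and 0.206% of genes. The median was -0.30 with 7 of 40 above 0. Ddit4 (-1.20 ± 0.36, adjusted p = 0.505) and Ldha (-0.41 ± 0.17, adjusted p = 0.517) had the smallest p by edgeR. Ddit4 was at 214, 163 and 267 CPM with phenformin, 229.8, 139, 139 and 99.6 with poly I:C and 119, 99.4, 179 and 130.0 with both. Hif1a, Slc2a1, Vegfa and Car9 had interactions of -0.29, -0.57, -1.06 and -0.80. These comparisons share control and single-agent libraries, so their values are not independent.

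In MT tumors the combination gave 3 calls among members against controls, all lower. Of 17857 genes, 6.14% were called (2.81% higher and 3.33% lower). DESeq2 called 7 members and 16.6% of genes. By both methods the share of members called in either direction was near that of all genes. The median was -0.38, and -0.16 without combination 1, and 7 of 40 folds were above 0. Adm was at 61.9, 47.3, 39.7 and 15.9 CPM in controls and 4.88, 12.1, 9.81 and 12.2 with the combination, without overlap (log2 -2.08 ± 0.47, adjusted p = 0.0316, edgeR). Slc16a1 was at 72.01, 79.6, 74.4 and 73.4 CPM with the combination, below every control (log2 -1.19 ± 0.28, adjusted p = 0.0336, edgeR). Bnip3l was at 116, 127, 131 and 121 CPM, also below every control (log2 -0.96 ± 0.26, adjusted p = 0.0456, edgeR). Hif1a (-0.10 ± 0.16), Slc2a1 (-0.01 ± 0.38), Ldha (-0.23 ± 0.25), Vegfa (-0.25 ± 0.46) and Car9 (0.41 ± 0.49) did not pass.

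MT combination 1 was the lowest library of its group for 36 of 40 members, with a median of -1.10 log2 from the group median, a B and plasma cell marker sum of 13474 CPM and the lowest breast epithelium sum. Without the libraries of high B and plasma cell markers 0 members were called by edgeR and the median was -0.08, with Adm at -1.91 ± 0.53 (adjusted p = 0.0921, edgeR) and Slc16a1 at -1.15 ± 0.33. Leaving out any 1 library of the comparison gave 0 calls, except that 9 were called without control 4. How many of all genes were called in those fits is not given here. Without the libraries of high Sox10, 0 were called, with Adm at -0.69, Slc16a1 at -0.34 and Bnip3l at -0.19.

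The other MT comparisons gave 0 calls among members by edgeR. Against poly I:C alone 0% of genes were called, 0 members and 6.03% of genes passed at an unadjusted p under 0.05, and DESeq2 called 0 members and 0.0224% of genes. The median was -0.20, but -0.0045 without combination 1 and -0.05 without poly I:C 1. Kdm3a (-0.45 ± 0.22) and Hif1a (-0.34 ± 0.16) had the smallest p. Hif1a was at 284, 322, 329 and 299 CPM with poly I:C and 259, 238, 229 and 259 with the combination, without overlap. Slc2a1, Ldha, Vegfa and Car9 gave -0.35, 0.09, -0.58 and -0.23. Against phenformin alone 0.106% of genes were called, 0.0784% higher and 0.028% lower. At an unadjusted p under 0.05 there were 7 members, all lower, where 8.97% of genes were lower, and DESeq2 called 2 members and 1.5% of genes. The median was -0.35, and -0.15 without combination 1. Adm (-1.94 ± 0.47, adjusted p = 0.213) and Slc16a1 (-0.999 ± 0.28, adjusted p = 0.249) had the smallest p by edgeR. Hif1a, Slc2a1, Ldha, Vegfa and Car9 gave -0.19, -0.14, 0.0015, -0.57 and 0.23. For the interaction 0% of genes were called, 0 members and 9.91% of genes passed at an unadjusted p under 0.05, and DESeq2 called 0 members and 0.207% of genes. Its median was -0.15, and it ran from -0.27 without phenformin 4 to 0.06 without combination 1. Eno2 (-1.23 ± 0.60) and Pfkfb3 (-0.64 ± 0.33) were first by p. Hif1a, Slc2a1, Ldha, Vegfa and Car9 gave -0.43, -0.48, 0.33, -0.90 and -0.41.

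Members with a close relative in the set are given side by side, as mean ± SD of CPM. In 4T1 tumors Egln1 was at 159 ± 12.7 in controls and 234 ± 33.8 with poly I:C, and Egln3 at 257 ± 20.7 and 149.9 ± 14.2: one rose and the other fell, and both passed. Of the lactate carriers, Slc16a1 was at 245 ± 34.5 in 4T1 controls and 262 ± 21.7 with poly I:C, and Slc16a3 at 27.7 ± 2.08 and 49.6 ± 20.003, of which only Slc16a3 passed. In MT tumors Slc16a1 was at 172 ± 59.4 and 73.6 ± 6.97 and passed as lower, and Slc16a3 was at 58.6 ± 35.1 and 109 ± 29.6 with a log2 fold of 0.91 ± 0.49 that did not pass. Of the glucose carriers, Slc2a1 was at 99.7 ± 20.3 and 194 ± 69.3 in 4T1 and Slc2a3 at 6.06 ± 1.23 and 15.2 ± 8.18, and both passed.

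Of the hexokinases, which trap glucose in the cell, Hk1 gave log2 0.29 ± 0.11 and Hk2 0.63 ± 0.21 with poly I:C in 4T1, and -0.28 ± 0.29 and 0.11 ± 0.30 in MT, none called. Of the phosphofructokinases, Pfkl (0.39 ± 0.11) and Pfkp (0.58 ± 0.12) passed in 4T1 and Pfkm, the muscle form, did not (-0.10 ± 0.21). Aldoa gave 0.38 ± 0.14 and Aldoc -0.08 ± 0.14 in 4T1, and -0.26 ± 0.25 and -3.06 ± 0.84 in MT, where only Aldoc was called. Eno1 gave 0.13 ± 0.15 and Eno2 1.41 ± 0.43 in 4T1, and -0.36 ± 0.29 and 0.90 ± 0.42 in MT. Pfkfb3 gave 0.29 ± 0.22 and Pfkfb4 -0.24 ± 0.16 in 4T1, and 1.01 ± 0.24 and 0.41 ± 0.23 in MT, with a call for Pfkfb3 in MT only. The collagen prolyl hydroxylase subunits P4ha1 and P4ha2 gave 0.49 ± 0.18 and 0.97 ± 0.31 in 4T1 and 0.03 ± 0.32 and -0.03 ± 0.40 in MT, none called. Bnip3 passed in 4T1 (1.11 ± 0.29) and Bnip3l did not (0.30 ± 0.14), and in MT Bnip3l passed (-0.91 ± 0.26) and Bnip3 did not (-0.33 ± 0.31).

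The remaining members were Ankrd37 (1.14 in 4T1 and -0.32 in MT with poly I:C), Mxi1, a Myc antagonist (0.39 and -0.23), Ndrg1 (0.50 and 0.50), Gpi1, glucose-6-phosphate isomerase (0.11 and -0.11), Gapdh (1.12 and -0.25) and Pdk1, which inhibits pyruvate dehydrogenase (0.25 and -0.76), none called in these comparisons. Counted with its copies, Gapdh was at 121, 121, 116 and 138 CPM in 4T1 controls and 149, 141, 175 and 132 with poly I:C, so the groups overlapped. The Gapdh folds above rest on the gene's own few reads. The spread within groups was wider in MT. The SD of log2 CPM within groups had a median over members of 0.27 in 4T1 and 0.47 in MT tumors, and was larger in MT for 37 of the 40. The steadiest member was Pkm in 4T1 (0.10) and Hif1a in MT (0.24), and the widest was Aldoc in MT (1.42).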

How the data were processed

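Bulk polyA RNA of 31 mouse tumor libraries was sequenced from strand-specific TruSeq libraries, per the labels' protocols. The authors deposited raw read counts per gene in 1 table. The submitters' processing notes name Trimmomatic 0.32.48, STAR 2.3.0, featureCounts 1.4.4 and the mm10 build; the annotation release, the strand setting and the treatment of reads with several matches are not given in the sources used here. Of 39017 gene IDs, 37693 were found in GENCODE M21 and 8371 had no read in any library.

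Groups follow the sample titles. Counts were tested with edgeR 4.0.16 (R 4.3.3), with TMM scaling, a filter on low counts (filterByExpr, minimum count 10, minimum total 15), quasi-likelihood tests and Benjamini-Hochberg adjustment over all genes tested, called at 0.05. Each model was fitted with its 4 arms, and comparisons across models used all 8 groups. SE was taken from the fold and the F statistic. The analysis was tested on simulated data with the same spread for all genes and no distinct libraries within an arm. That test does not cover libraries that stand apart by markers, as here. DESeq2 1.42.0, other scalings and filters, the replicate number as a block, and fits without single libraries were alternatives. Sums with near-identical copies (BLAST 2.17.0) and fits without libraries of high B and plasma cell markers were added after seeing the data.

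Members and lists were chosen with earlier results of these data known. The text gives in full the 6 called members with the smallest p for poly I:C against control and 3 elsewhere, 2 where none was called, and Hif1a, Slc2a1, Ldha, Vegfa and Car9 throughout; other members were picked after their values were seen. Since the labels name no animals, p-values measure the spread between libraries, which may be technical. Adipocyte markers (4) were also counted: 0 were called with poly I:C in 4T1 tumors and 1 was called higher in MT tumors. The values of 1 gene of the other hypoxia-responsive genes that the naming rule picked are not reported here.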

Additional observations from a re-analysis of the deposited data

Results flagged for a closer look

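Within groups of 4 libraries, 280 sets of values of 1 member in 1 group were tested with Dixon's criterion for a single distant library, which marks about 1 in 20 by chance, and 12 were marked. MT control 4 stood apart for 6 genes: Aldoc at 73.8 CPM, Slc2a3 at 11.5, Pdk1 at 77.5, Car9 at 45.4, Bnip3l at 144 and Ankrd37 at 25.2. It is the MT control with low Sox10 and high basal epithelium markers. MT combination 1 stood apart for Pgam1 at 19.5 CPM and Higd1a at 42.4, and it held the highest B and plasma cell marker sum. Slc2a1 was distant in 4T1 control 3 at 69.6 CPM and in MT phenformin 3 at 243. Slc2a3 was distant in MT phenformin 4 at 19.3 CPM, and Hk1 in 4T1 poly I:C 3 at 157.

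With all libraries kept, the response to poly I:C differed between the models, by the test of the difference, in 9 members. On the log2 scale the 4T1 response minus the MT response was 2.87 for Adm, 1.32 for Slc16a1, 1.21 for Bnip3l, 1.33 for Higd1a, 2.97 for Aldoc, 0.76 for Pfkp, 0.96 for Tpi1, 1.43 for Bnip3 and 1.14 for Pfkl. In the 16 fits without 1 library, Adm, Slc16a1 and Bnip3l were called in all 16. Higd1a was called in 12, Aldoc in 11, Pfkp in 8, Tpi1 in 7, Bnip3 in 5 and Pfkl in 4. Sox10 was high in MT control 1 to 3 and in no MT poly I:C library. In MT the treatment therefore cannot be told apart from that difference between libraries.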

How the results depend on the processing

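The 4T1 poly I:C count of 17 was 26 with DESeq2, 6 with only the groups compared, 8 without libraries of high B and plasma cell markers and 0 without those of high Acta1. DESeq2 gave 1 call for 4T1 phenformin, 7 for the 4T1 combination (4 with only the groups compared), 2 against poly I:C, 1 against phenformin, 7 for the MT combination, 2 for it against phenformin and 16 for the difference of responses. The MT combination count of 3 was 1 with no filter and 0 with only the groups compared, without high Sox10 or without high B and plasma cell markers. Without high Sox10, MT poly I:C had 0, untreated tumors 14, the difference of responses 1 (also 1 without high Acta1, 5 with no filter) and poly I:C averaged 2 (also 2 without high Acta1, 5 with no filter). Without 1 library the counts ran from 5 to 27 (4T1 poly I:C), 0 to 4 (4T1 combination against poly I:C), 2 to 9 (MT poly I:C), 0 to 9 (MT combination), 22 to 26 (untreated), 3 to 15 (difference of responses) and 3 to 12 (poly I:C averaged), and stayed at 0 for the other 9. Counts from fits without libraries are given without the share of all genes called in the same fit. A change in the set therefore cannot be told from a change across all genes. The causes were not tested beyond the libraries named.

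With the replicate number as a block, the 4T1 poly I:C count was 9 in place of 17, and no other count moved by over 1.5 times. Deviations of same-numbered libraries had a median correlation of -0.06 in 4T1, with 6 of 21 pairs over 0.1. In MT it was 0.10, with 12 of 24 pairs. For libraries of different numbers the medians were 0.05 in 4T1 (22 of 63 pairs) and 0.0018 in MT (30 of 72 pairs). Same numbers were thus no closer in 4T1, and in MT the check does not settle whether the numbers pair the libraries.

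Sign changes were looked for only in the genes that the naming rule picked for each comparison, and not in the other members. Outside fits without 1 library, 40 fold changes of these genes turned sign, all but those of Aldoc, Arnt, Arnt2 and Pgd not called before. Without the 4T1 libraries of high Acta1, values of the other sign were 4T1 phenformin Hif1a -0.0057, 4T1 combination against poly I:C Slc2a1 0.029, Car9 0.17, phenformin averaged Slc2a1 -0.019, Ldha 0.013. Without the libraries of high B and plasma cell markers, values of the other sign were 4T1 combination against poly I:C Slc2a1 0.053, MT combination Slc2a1 0.42, Vegfa 0.30, MT combination against poly I:C Car9 0.031, MT combination against phenformin Slc2a1 0.22, difference of responses Car9 -0.080, phenformin averaged Ldha 0.053. With the replicate number as a block, values of the other sign were 4T1 combination against phenformin Car9 -0.10, MT combination Slc2a1 0.0023, MT combination against phenformin Ldha -0.015. Without the MT libraries of high Sox10, values of the other sign were MT poly I:C Slc2a1 -0.25, Car9 -0.36, MT phenformin Hif1a -0.017, Slc2a1 -0.66, Vegfa -0.74, Car9 -0.89, MT combination Hif1a 0.25, Car9 -0.58, MT combination against phenformin Hif1a 0.26, Slc2a1 0.061, Vegfa 0.45, MT interaction Slc2a1 0.31, Vegfa 0.17, Car9 0.66, untreated Pgd 0.060, difference of responses Hif1a -0.13, phenformin averaged Slc2a1 -0.17, Car9 -0.18, poly I:C averaged Aldoc 0.20, Arnt 0.020, Arnt2 0.093. With DESeq2, values of the other sign were MT combination Slc2a1 0.0027. With DESeq2's size factors in edgeR, values of the other sign were MT combination Slc2a1 0.0027. With no filter on low counts, values of the other sign were MT combination Slc2a1 0.0087. With a filter of at least 1 CPM in 4 libraries, values of the other sign were MT combination Slc2a1 0.0025. Leaving out 1 library, the sign also changed in 4T1 combination against phenformin Car9 -0.12 to 0.18, Vegfa -0.13 to 0.33, MT combination against phenformin Car9 -0.035 to 0.55, Ldha -0.11 to 0.19, Slc2a1 -0.32 to 0.12, MT combination against poly I:C Car9 -0.50 to 0.086, Ldha -0.020 to 0.28, MT phenformin Car9 -0.10 to 0.76, Hif1a -0.073 to 0.21, Slc2a1 -0.082 to 0.40, difference of responses Car9 -0.40 to 0.35, 4T1 phenformin Hif1a -0.016 to 0.091, phenformin averaged Ldha -0.042 to 0.049, Slc2a1 -0.056 to 0.11, 4T1 combination against poly I:C Slc2a1 -0.30 to 0.053, MT combination Slc2a1 -0.19 to 0.26, Vegfa -0.62 to 0.069.

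Counts limit genes with few reads most: Slc2a3, Pfkfb4 and Gapdh had the fewest. For Gapdh this was the gene's own count, 3244 reads against 90173 for its copies, and does not show a rare transcript.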
